A study of Mus musculus with 6 samples.

Results

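The miRNAs described here are 7 probes of a mouse miRNA panel, chosen by name, of 566 mouse miRNA probes and 626 probes in all: mmu-miR-126-3p, mmu-miR-126-5p, mmu-miR-143, mmu-miR-145, mmu-miR-199a-3p, mmu-miR-199a-5p and mmu-miR-214, written below without the species prefix. They were measured in splenocytes of female NZB/WF1 mice, a hybrid that develops a lupus-like autoimmune disease, in 6 samples. The groups were an implant with 17α-ethinyl estradiol (EE, a synthetic estrogen), one with 17-beta estradiol (E2, the natural hormone) and an empty implant (placebo), with 2 samples each. All mice received their implant at 6 to 7 weeks of age, and spleen cells were taken after 9 weeks of treatment. EE is E2 with an ethinyl group added. Whether a group's samples are separate mice is not labelled, and p-values therefore cover only the spread between these samples, which may be technical. The sources used here give no implant dose.

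miRNAs are short RNAs that pair through their seed, near the 5′ end, with messenger RNAs and lower their output. miR-126 lies within Egfl7, a gene of endothelial cells, and is known for its part in VEGF signalling and vessel integrity. It is also made in blood stem cells, megakaryocytes and platelets. miR-143 and miR-145 come from a shared primary transcript of smooth muscle cells, pericytes and fibroblasts and promote the contractile state of smooth muscle. miR-199a and miR-214 come together from the noncoding gene Dnm3os in mesenchymal cells and activated fibroblasts. In the spleen such cells belong to the vessels and the reticular scaffold, while lymphocytes make up most of a cell suspension.

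The mature sequences show which RNAs the probes can tell apart. They are shown with the seed (bases 2 to 8) in capitals, from RefSeq on build GRCm38.p6. The probe miR-126-3p was matched through an older name to miR-126a-3p, at chr2:26591402-26591423 on the plus strand inside Egfl7. The miR-199a arms are given from Mir199a-2 inside Dnm3os, miR-199a-5p at chr1:162217844-162217866 and miR-199a-3p at chr1:162217883-162217904, both on the plus strand. Mir199a-1 on chromosome 9 gives the same mature arms.
miR-126a-3p: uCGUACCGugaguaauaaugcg
miR-199a-5p: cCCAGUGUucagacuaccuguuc
miR-199a-3p: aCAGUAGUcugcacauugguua
miR-199b-3p: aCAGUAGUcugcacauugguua
miR-199b-3p, from chr2:32318524-32318545 on the plus strand, is identical to miR-199a-3p, so a probe for the one reads the other too. No seed is shared between miR-126a-3p, miR-199a-5p and miR-199a-3p. The panel's miR-214 probe names no arm. The Mir214 hairpin, at chr1:162223368-162223477 on the plus strand and also inside Dnm3os, is shown with both annotated mature arms in capitals, the 5p arm first.
Mir214: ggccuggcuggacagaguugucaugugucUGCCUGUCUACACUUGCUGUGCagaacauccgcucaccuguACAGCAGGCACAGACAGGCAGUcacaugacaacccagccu

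The assay, nCounter, counts single barcoded molecules after each miRNA is ligated to a tag, and the deposited values are normalized counts. Their sum over all probes ran from 167152 to 205209 per sample, after normalization, so the raw depth is unknown. Background was read from 8 negative control (NEG) probes, which have no target. They ran from 6 to 59 normalized counts in EE samples, from 4 to 50 in E2 samples and from 7 to 58 in placebo samples. Their mean was 25.3 and 23.8 in EE samples, 18.5 and 20.5 in E2 samples and 27.3 and 19.8 in placebo samples. The detection floor was the mean + 2 SD of all NEG values, 53.3 normalized counts, and 95 mouse miRNAs had a mean above it and were tested together. The brightest NEG probe was itself above the floor, at 59 and 56 in EE samples and at 58 in placebo sample 1. miR-150, the defining lymphocyte miRNA, stood between 14140 and 44123 normalized counts in all 6 samples.

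Of the 7 miRNAs, only miR-126-3p and miR-145 passed the floor, and each did so in all 6 samples, above all 8 NEG probes of its sample. The other 5 probes stayed under the floor in every sample. Both detected miRNAs were highest in the EE samples, and the remaining order differed: E2 came next for miR-126-3p and placebo for miR-145.

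**Figure D1:**
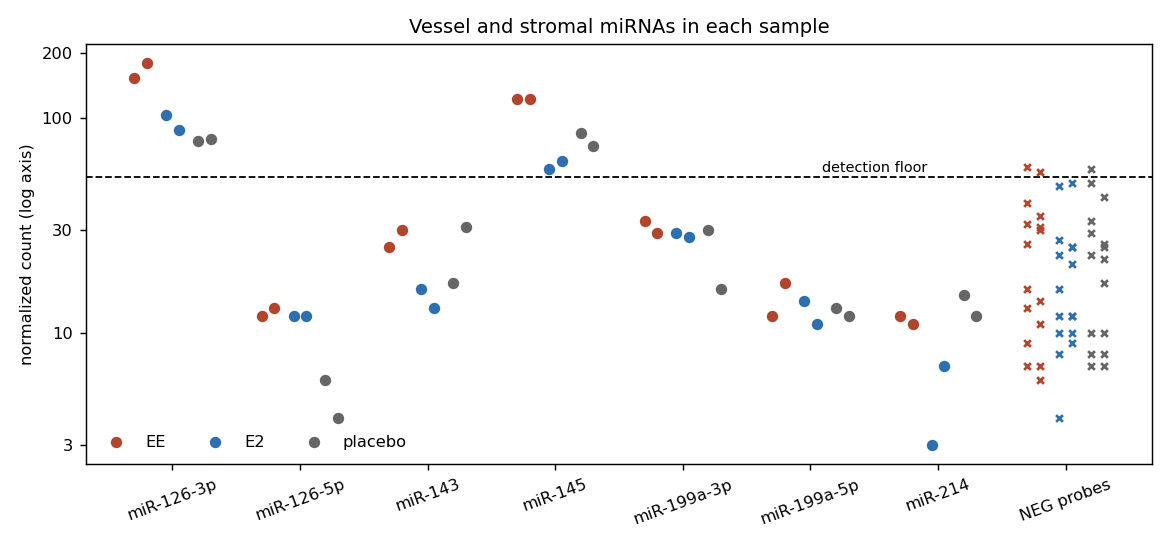
Normalized counts (log axis) of the 7 miRNAs, 1 point per sample, with EE left, E2 in the middle and placebo right, and the 8 NEG probes of each sample as crosses. Of the 7, only miR-126-3p and miR-145 lie above the dashed floor of 53.3, and both are highest in the EE samples.

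miR-126-3p is known from endothelial cells and some blood cells. Its normalized counts were 154 and 180 in EE samples, 103 and 88 in E2 samples and 78 and 80 in placebo samples. No group overlapped another, and EE was highest. Such separation was common among the 95 tested miRNAs: 26.3% had both EE samples above both placebo samples, 26.3% had them above both E2 samples, and for 63.2% the E2 and placebo samples did not overlap. The means were 167 ± 18.4 with EE, 95.5 ± 10.6 with E2 and 79.0 ± 1.41 with placebo (SD, n = 2 each). The highest NEG probe of any sample reached 59, so the placebo level was not far above background.

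miR-145 is known from smooth muscle cells, pericytes and fibroblasts. It stood at 123 in both EE samples, at 58 and 63 in E2 samples and at 85 and 74 in placebo samples. Again no group overlapped another, read against the same shares, but here E2 lay under placebo. The means were 123 with EE, 60.5 ± 3.54 with E2 and 79.5 ± 7.78 with placebo (SD, n = 2 each). The highest NEG probe of the same E2 samples was at 48 and 50, so the E2 level of miR-145 was close to background.

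The comparison of EE with placebo asked which miRNAs changed with the synthetic hormone. Both tested members rose, miR-126-3p 2.09-fold and miR-145 1.54-fold. Of all 95 tested miRNAs 10 rose, which is 10.5%, and 26.3% had both EE samples above both placebo samples. The log2 fold change, from means of log2(value + 1), was 1.07 ± 0.19 (SE) for miR-126-3p, with an adjusted p of 0.00189 in limma's moderated test. It was 0.63 ± 0.19 (SE) for miR-145, with an adjusted p of 0.0355. The 95% intervals ran from 0.64 to 1.49 for miR-126-3p and from 0.20 to 1.06 for miR-145. Ordered from the largest rise to the largest fall, they ranked 5 and 10 among the 95. In splenocyte RNA, more cells that hold a miRNA and more of it per cell cannot be told apart.

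The miR-126-3p call ended only when samples were rescaled by the ligation controls (log2 fold change 0.86, adjusted p 0.0715), among 20 alternatives. Those that changed only the filter, the variance model or the use of E2 samples left its log2 fold change at 1.07. They could alter only its error or adjustment. The miR-145 call was less stable and ended in 11 of 20, with log2 fold changes of 0.42 to 0.80 over all of them. They included 5 of the 6 fits that left out 1 sample: adjusted p was 0.139 without EE sample 1, 0.134 without EE sample 2, 0.0534 without E2 sample 1, 0.0539 without E2 sample 2 and 0.131 without placebo sample 2.

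**Figure D2:**
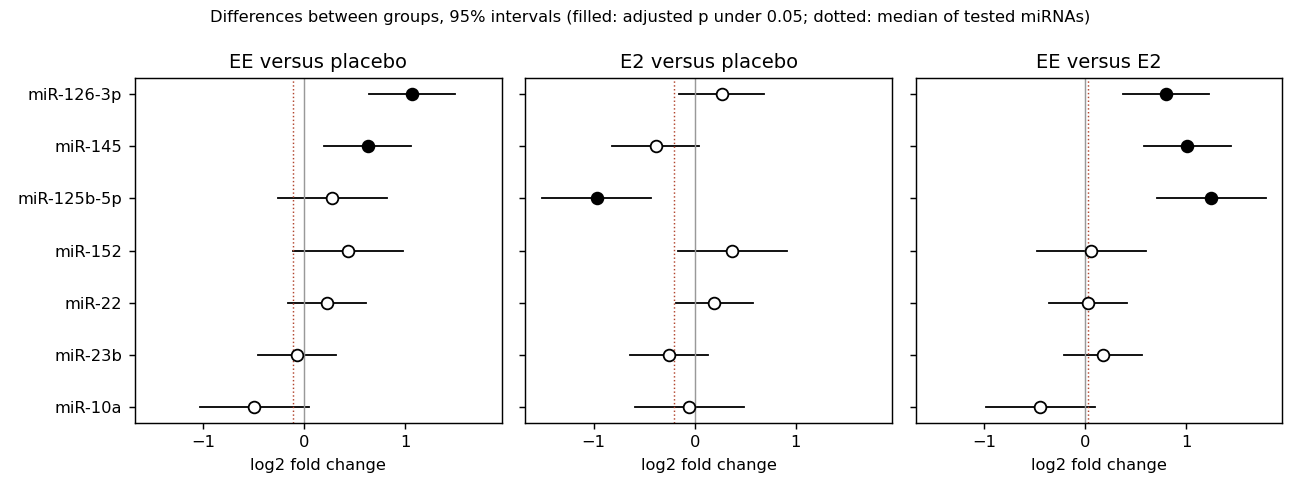
Log2 fold changes with 95% intervals of miR-126-3p, miR-145 and the 5 other tested vessel and stromal miRNAs, a panel per comparison. Filled points had an adjusted p under 0.05 and the dotted line is the median of all 95 tested miRNAs. With EE over placebo miR-126-3p (1.07) and miR-145 (0.63) are filled, with E2 over placebo miR-125b-5p (-0.97), and with EE over E2 miR-125b-5p (1.25), miR-145 (1.01) and miR-126-3p (0.80).

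The comparison of E2 with placebo asked the same of the natural hormone. Neither member passed the test, adjusted or at an unadjusted p under 0.05, while 10 of the 95 tested miRNAs did after adjustment, which is 10.5%. miR-126-3p had a log2 fold change of 0.27 ± 0.19 (SE), with a 95% interval from -0.16 to 0.69 and an adjusted p of 0.348 in limma. miR-145 had -0.39 ± 0.19 (SE), from -0.82 to 0.04, with an adjusted p of 0.224. The samples of both did not overlap between E2 and placebo, as for 63.2% of the tested miRNAs. The intervals leave room for a rise of miR-126-3p and a fall of miR-145, so the data do not show that either was unaffected. The median of all 95 was -0.20, and relative to it miR-126-3p stood at 0.47 and miR-145 at -0.19. EE and E2 were set against the same placebo samples, so these comparisons are not independent of each other.

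EE was set against E2 to ask where the estrogens differed. Both detected members were higher with EE, miR-145 by 2.02-fold and miR-126-3p by 1.74-fold. Only 3 of the 95 tested miRNAs, 3.16%, were higher with EE at the threshold, and these were miR-125b-5p, miR-145 and miR-126-3p. The E2 samples of miR-125b-5p lay under the floor, so the size of its difference is uncertain (log2 fold changes of 0.74 to 1.87 over its alternatives). As the doses may differ, the test compares these implants and not the molecules at equal exposure. The log2 fold change was 1.01 ± 0.19 (SE) for miR-145, with a 95% interval from 0.58 to 1.44 and an adjusted p of 0.0121 in limma. It was 0.80 ± 0.19 (SE) for miR-126-3p, from 0.38 to 1.22, with an adjusted p of 0.0320. Both EE samples lay above both E2 samples for each, as for 26.3% of the tested miRNAs.

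Over 20 alternatives the miR-145 difference kept its call in 15 and the miR-126-3p difference in 11. The calls ended without E2 sample 1 (adjusted p 0.107 for each) and without E2 sample 2 (just over 0.05 for miR-145, 0.202 for miR-126-3p), and that of miR-126-3p also without EE sample 1 (0.0626) or EE sample 2 (0.196). The ligation controls, whose geometric mean was 2403 and 3208 in EE samples, 1840 and 2027 in E2 samples and 2119 and 2739 in placebo samples, were higher with EE than with E2. With them as the scale the log2 fold changes were 0.50 and 0.28 for miR-145 and miR-126-3p, where the tested median was -0.49. Relative to the median of the tested miRNAs they stood at 0.98 and 0.77 as deposited and at 0.99 and 0.77 with ligation controls. Rescaling moves all miRNAs of a sample alike, so these relative values could hardly change and do not test the difference. The NEG mean was higher in both EE samples than in both E2 samples. After its subtraction the log2 fold changes were 1.25 (limma adjusted p 0.0266) for miR-145 and 0.90 (0.0689) for miR-126-3p.

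**Figure D3:**
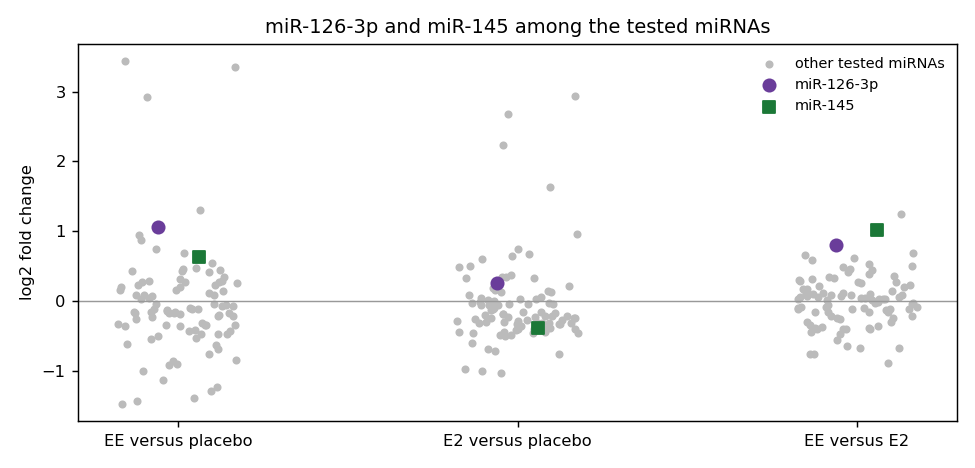
Log2 fold changes of the 95 tested miRNAs (grey), miR-126-3p (purple circle) and miR-145 (green square), a column per comparison. With EE over E2 the pair lies near the top, at 0.80 and 1.01, and with E2 over placebo it lies within the bulk, at 0.27 and -0.39.

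The RNAs processed alongside these miRNAs were at background. miR-126-5p, the other arm of miR-126, was at 12 and 13 normalized counts in EE samples, 12 and 12 in E2 samples and 6 and 4 in placebo samples. Both estrogen groups lay above placebo without overlap, as miR-126-3p did, but each value exceeded at most 3 of the 8 NEG probes of its sample. Other probes under the floor, among them miR-10b and miR-222, also had both estrogen groups above placebo. The share of all such probes was not counted. In a fit over all 566 mouse miRNAs its adjusted p was 0.156 for EE against placebo and 0.312 for E2 against placebo. miR-143, which shares its primary transcript with miR-145, was at 25 and 30 in EE samples, 16 and 13 in E2 samples and 17 and 31 in placebo samples. EE lay above E2 here too, but the placebo samples spanned almost the whole range, and without the filter the adjusted p of EE against E2 was 0.669. No fold change is given for probes under the floor in both groups.

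The Dnm3os miRNAs showed no level above background. miR-199a-3p was at 33 and 29 in EE samples, 29 and 28 in E2 samples and 30 and 16 in placebo samples. It exceeded 31 and 33 of the 33 viral miRNA probes of the panel in EE samples, 33 and 32 in E2 samples and 30 and 26 in placebo samples, while at least 1 NEG probe was higher in every sample. Placebo sample 2 was low and the other 5 samples lay together. miR-199a-5p was at 12 and 17 in EE samples, 14 and 11 in E2 samples and 13 and 12 in placebo samples, with all groups overlapping. miR-214 was at 12 and 11 in EE samples, 3 and 7 in E2 samples and 15 and 12 in placebo samples. E2 was the lowest group, under all 8 NEG probes in both samples, so its order against the others lies within background. Of these 3 probes none passed in any comparison without the filter, with adjusted p-values from 0.312 for miR-214 in E2 against placebo upward.

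Other miRNAs of vessel and stromal cells were taken from a list of 24, of which 22 had a probe and 5 were above the floor. None of the 5 passed with EE over placebo, where 26.3% of the 95 passed in either direction. With E2 against placebo 1 was lower, as were 6.32% of the 95, and with EE against E2 1 was higher, as were 3.16%. Both were miR-125b-5p, which is abundant in fibroblasts and smooth muscle. The list's median log2 fold change was 0.23 for EE over placebo, -0.05 for E2 over placebo and 0.06 for EE over E2, beside -0.11, -0.20 and 0.03 over all 95.

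miR-125b-5p was at 82 and 96 normalized counts in EE samples, 30 and 45 in E2 samples and 75 and 71 in placebo samples. The E2 samples stood apart and lay under the floor, so the sizes of its changes are uncertain. Its mean of 66.5 passed the floor through the EE and placebo samples. With the filter at mean + 3 SD, 68.7, it was not tested at all, which leaves it 19 alternatives. Its log2 fold change was 1.25 ± 0.24 (SE) for EE over E2 (adjusted p 0.0121, limma) and -0.97 ± 0.24 (SE) for E2 over placebo (0.0247). The E2 call ended in 8 of 19 alternatives, among them those without E2 sample 1 (0.212), placebo sample 1 (0.0636) or placebo sample 2 (0.0548), and the EE over E2 call in 4, among them that without E2 sample 1 (0.107). With EE over placebo it was 0.28, with an adjusted p of 0.433. The order of the groups, EE then placebo then E2, was that of miR-145.

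The endothelial members above the floor were miR-10a and miR-23b, and neither passed in any comparison. miR-10a, encoded in a Hox cluster, was at 121 and 108 in EE samples, 119 and 204 in E2 samples and 159 and 164 in placebo samples, with EE under placebo (log2 fold change -0.49, adjusted p 0.166). Its E2 samples differed widely. miR-23b was at 172 and 199 in EE samples, 161 and 165 in E2 samples and 192 and 196 in placebo samples, with -0.07 for EE over placebo (adjusted p 0.749). That value was 0.04 with housekeeping mRNAs as the scale and also without EE sample 1. Of the stromal members, miR-22 was at 1354 and 1277 in EE samples, 1409 and 1176 in E2 samples and 1242 and 1016 in placebo samples. miR-152 targets the DNA methyltransferase Dnmt1. It was at 74 and 54 in EE samples, 69 and 53 in E2 samples and 48 and 45 in placebo samples. Most of these values were close to the floor. Both placebo samples and E2 sample 2 lay under it, so the size of its change is uncertain. For EE over placebo miR-22 had a log2 fold change of 0.23 (adjusted p 0.366) and miR-152 of 0.44 (0.201). The 17 untested members of the list had means of at most 34.2 normalized counts, that of miR-99a, and none exceeded the floor in any sample.

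The tested miRNAs whose values over the 6 samples were most like those of miR-126-3p were miR-93 of the miR-106b-25 cluster (Pearson r 0.89, Spearman rho 0.89), miR-101b (r 0.88, rho 0.60) and miR-19a of the miR-17-92 cluster (r 0.86, rho 0.94). Those most like miR-145 were miR-101b (r 0.91, rho 0.81), miR-125b-5p (r 0.87, rho 0.99) and miR-24 (r 0.80, rho 0.94). miR-145 ranked 6 for miR-126-3p, with an r of 0.77 and a rho of 0.41. With 3 groups of 2 samples that share a scale per sample, these values mostly describe differences between groups, and they are given as a description.

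Markers of other cell types moved between the same groups. The summed erythroid markers miR-144, miR-451 and miR-486 were at 7933 and 7187 normalized counts in EE samples, 5230 and 4376 in E2 samples and 1393 and 596 in placebo samples. All 3 exceeded the floor in every sample except miR-144 in placebo sample 2. The 3 lymphoid markers miR-150, miR-181a and miR-342-3p summed to 18297 and 17116 in EE samples, 28589 and 26756 in E2 samples and 50761 and 41000 in placebo samples. The myeloid marker miR-223 was at 1984 and 2042 in EE samples, 3522 and 3244 in E2 samples and 1308 and 911 in placebo samples. The order EE, E2, placebo of the erythroid sum is also that of miR-126-3p, and none of these 3 marker groups had the order of miR-145. The part of cell composition in either result was not tested. The 4 skeletal and cardiac muscle markers summed to 63 and 52 in EE samples, 41 and 58 in E2 samples and 50 and 48 in placebo samples. None of these, of the 4 pancreas markers (33 to 68 summed) or the liver marker miR-122 (2 to 8) exceeded the floor in any sample. Of 6 epithelial markers, which summed to 238 and 198 in EE samples, 210 and 225 in E2 samples and 243 and 240 in placebo samples, only miR-200c was tested, and it passed in no comparison.

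**Figure D4:**
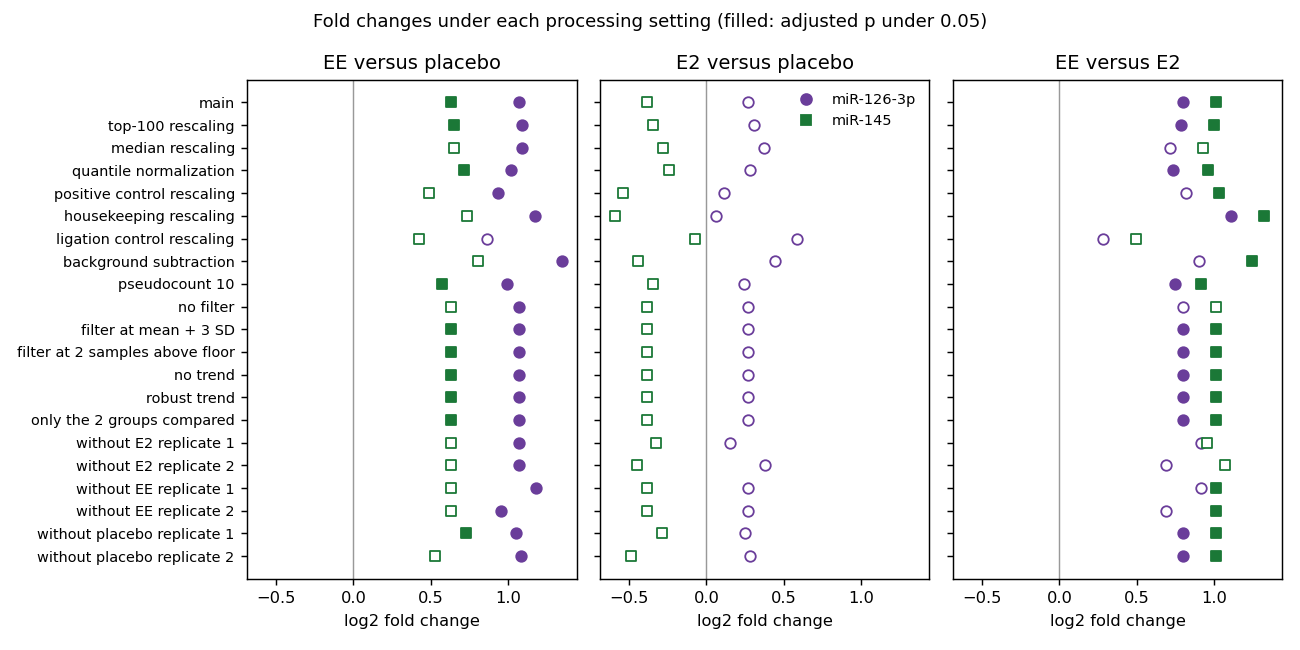
Log2 fold changes of miR-126-3p (circles) and miR-145 (squares) under each of 21 settings, a row per setting and a panel per comparison, filled where the adjusted p was under 0.05. With EE over placebo miR-126-3p is open only with ligation control rescaling, whereas miR-145 is open in 11 settings, and no point changes sign.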

How the data were processed

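Total RNA of splenocytes was profiled with the nCounter mouse miRNA V1.5 panel, per the labels. The authors deposited a whole-number score for each probe and sample, here taken as normalized counts because the geometric mean of each sample's 100 highest miRNAs varied by only 3.54% while that of the ligation controls varied by 74.3%. How the authors normalized is not stated in the labels, and no count model or counting interval was used. The members and lists were chosen with earlier results of these data known.

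limma 3.58.1 in R 4.3.3 (lmFit, eBayes with trend) was fitted to log2(value + 1) of all 6 samples and 95 miRNAs, two-sided, with Benjamini-Hochberg adjustment and a threshold of 0.05. The pseudocount of 1 slightly understates changes. The fit was tested on simulated data. An exact permutation test of 2 against 2 samples cannot go below a p of 0.333. Named were all 7 members, the tested list members and markers, and the 3 miRNAs most like each detected member. Alternatives changed the scaling, background, pseudocount, filter, variance model or samples. miR-143 and miR-145 sequences are not shown here.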

Additional observations from a re-analysis of the deposited data

Results flagged for a closer look

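The responses to EE and to E2 differed by the direct test of the difference for miR-145 and for miR-126-3p, with log2 fold changes of 1.01 and 0.80 for EE over E2 (limma adjusted p 0.0121 and 0.0320). The call ended in 5 of 20 alternatives for miR-145 and in 9 of 20 for miR-126-3p, in both cases without either E2 sample, and with ligation controls as the scale the values were 0.50 and 0.28. Groups of 2 samples allow no test for an outlying sample.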

How the results depend on the processing

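Of the 95 tested miRNAs, 25 were called for EE against placebo, 10 for E2 against placebo and 7 for EE against E2. For EE against placebo the count was 15 with median rescaling, 16 with housekeeping mRNAs, 11 with ligation controls (3 higher, 8 lower, against 10 and 15), 14 without the filter, and 15 to 23 when 1 sample was left out (15 without EE sample 2). It held 6 higher and 15 lower with positive controls. For E2 against placebo it was 4 with median rescaling or ligation controls (all higher, against 4 higher and 6 lower), 5 without the filter (all higher), and 6 (without E2 sample 1) to 12 with 1 sample left out, and 7 higher and 4 lower with quantile normalization. For EE against E2 it was 0 with median rescaling and without the filter (limma, with 15 and 37 at an unadjusted p under 0.05), 3 with ligation controls (all lower, against 3 higher and 4 lower), 12 in a fit of the compared groups alone, and 0 to 12 with 1 sample left out. The 0 came without E2 sample 1, where 10 had an unadjusted p under 0.05. It was 1 without E2 sample 2, 4 without either EE sample and 12 without either placebo sample. There it held 4 higher and 2 lower with quantile normalization, 3 and 2 with positive controls and 5 and 0 with housekeeping mRNAs.

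miR-126-3p lost its EE over placebo call with ligation controls alone (log2 fold change 0.86, and 0.95 to 1.18 with 1 sample left out). miR-145 lost it with rescaling by the median (0.65), positive controls (0.49), housekeeping mRNAs (0.73) or ligation controls (0.42), with background subtraction (0.80), without the filter (0.63), and in 5 fits with 1 sample left out (0.53 to 0.73 over all 6). For EE over E2, miR-126-3p lost its call with the median (0.71), positive controls (0.82), ligation controls (0.28), background subtraction (0.90), without the filter (0.80) and in 4 fits with 1 sample left out (0.69 to 0.91). miR-145 lost it with the median (0.93), ligation controls (0.50), without the filter (1.01) and without either E2 sample (0.95 to 1.07 over all 6). For E2 over placebo neither passed under any of 20 alternatives, with 0.06 to 0.58 for miR-126-3p and -0.59 to -0.07 for miR-145. The small EE over placebo value of miR-23b turned positive with housekeeping mRNAs (0.038) and without EE sample 1 (0.037), and over the fits with 1 sample left out ran from -0.17 to 0.037. No sign of miR-126-3p or miR-145 changed in any comparison. Without either EE sample or either E2 sample, the EE over placebo value of miR-145 itself stayed at 0.63. Otherwise, why these calls ended was not tested, except that the fit without the filter adjusted over 566 miRNAs in place of 95. With 2 samples a group and levels near background, small differences were not detectable. No paired analysis was possible because the groups share no replicate numbers in the labels.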

Other observations

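A ratio of 2 probes within a sample does not depend on how that sample was scaled. The ratio of miR-145 to miR-126-3p was 0.799 and 0.683 in EE samples, 0.563 and 0.716 in E2 samples and 1.09 and 0.925 in placebo samples. All 4 estrogen samples lay under both placebo samples, and they did so too after the NEG mean was subtracted, at 0.759 and 0.635 with EE, 0.467 and 0.630 with E2 and 1.14 and 0.900 with placebo. The ratio of miR-125b-5p to miR-145 was 0.667 and 0.780 in EE samples, 0.517 and 0.714 in E2 samples and 0.882 and 0.959 in placebo samples, again with all estrogen samples under both placebo samples. After subtraction of the NEG mean it was 0.581 and 0.728 with EE, 0.291 and 0.576 with E2 and 0.827 and 0.945 with placebo. Both E2 samples of miR-125b-5p, at 30 and 45 normalized counts, lay under the floor and under the highest NEG probe of their sample, so their ratios are uncertain. These ratios were chosen after seeing the data and carry no test. Both use miR-145, so the second is not an independent repeat. Of the 95 tested miRNAs taken singly, 63.2% did not overlap between E2 and placebo in either direction, a looser pattern than that of the ratios. How many other pairs of probes separate the groups this way was not counted.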
